A study of Saccharomyces cerevisiae with 40 samples.

Results

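The 137 genes described here encode the proteins of the cytosolic ribosome of budding yeast, Saccharomyces cerevisiae. They were chosen by name from the 6462 genes of the table: all RPL and RPS genes with a number and, where there is one, a final A or B, together with the genes of the ribosomal stalk (RPP0, RPP1A, RPP1B, RPP2A and RPP2B). Of the 137, 76 encode large-subunit proteins, 56 small-subunit proteins and 5 stalk proteins. With the 2 members of a pair counted as 1, though not always identical, they make 78 proteins. Of the genes, 118 form 59 pairs of paralogues named A and B, and 19 are single copies.

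The series measured polyadenylated RNA in 40 libraries of yeast cultures, 10 groups of 4. The control group is labelled Ctrl. The 9 treated groups carry the name of 1 amino acid each, given in excess: alanine (Ala) and glycine (Gly), the branched valine (Val) and isoleucine (Ile), the aromatic phenylalanine (Phe) and tryptophan (Trp), the sulphur-containing cysteine (Cys) and methionine (Met), and threonine (Thr). Every group has 1 library from each of 4 batches, lettered A to D. Strain, medium, dose, time of exposure and growth stage are not given by the labels. Nothing says whether the 4 libraries of a group came from separate cultures, and a p-value then reflects only the spread among libraries, part of which may be technical.

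A ribosome joins a small subunit, which decodes the messenger RNA, to a large subunit, which forms the peptide bond and holds the exit tunnel and the stalk that recruits translation factors. Most of its proteins are needed in equal number, with the stalk proteins as an exception, and in growing yeast the genes for them are among the most strongly transcribed. Rap1, Fhl1, Ifh1 and Sfp1 activate most of them, and the kinase complex TORC1, which senses amino acids, acts on this control. The paired genes descend from an ancient genome duplication and mostly encode the same or nearly the same protein. Many hold an intron, and for several pairs the protein is known to limit the splicing or stability of its own transcript.

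The values are normalized reads: each library's reads divided by 1 factor. Estimated depth ran from 5555860 to 17928700 reads a library, with a median of 8736145. Ribosomal protein transcripts took 14.2% ± 1.01 (SD, n = 4) of all normalized reads in Ctrl. The share was 11.8% ± 0.70 in Ala, the lowest of the groups, and 15.4% ± 0.54 in Val and 15.4% ± 1.16 in Thr, the highest. Ile had 14.5% ± 1.15, Trp 14.2% ± 0.75, Met 14.1% ± 1.495, Phe 13.8% ± 2.24, Gly 13.6% ± 1.48 and Cys 13.5% ± 1.72. The 4 Ala libraries reached 11.3 to 12.9%, and the lowest Ctrl library had 12.8%, so that the highest Ala library lay just above it. The share also moved with the batch, with a median of 15.3% over the libraries of batch A and 12.9% over those of batch D. In Phe the libraries of batches A and B stood near the top of the series and those of C and D near its bottom. The markers of mating type fit cells of type a, with STE2, the receptor of such cells, at 6989 ± 130 normalized reads in Ctrl and STE3, that of the opposite type, at 17.2 ± 5.91.

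**Figure D1:**
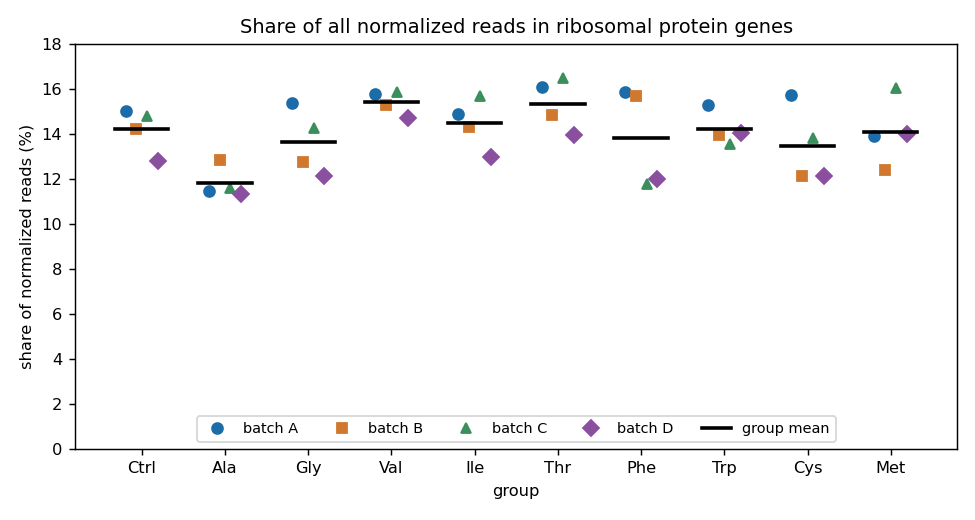
Share of all normalized reads (percent, y axis) in the 137 ribosomal protein genes, for each of the 40 libraries by group (x axis). Symbols mark the batch and the bar is the mean of 4. Ala is lowest at 11.8% ± 0.70, Val and Thr are highest, and the Phe libraries spread from 11.8 to 15.9%.

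Levels within the family were compared per 1000 bases of coding sequence, with lengths from the R64 annotation. In Ctrl they ran from 261 to 57468 normalized reads per kb, with a median of 18467. The highest was RPS31 (57468 ± 4852, SD, n = 4), which is made as a fusion with ubiquitin. Also among the highest were RPL32 (46051 ± 5588), RPL5 (45588 ± 3676), which binds a small ribosomal RNA before it joins the large subunit, and RPL3 (44852 ± 4230), whose protein reaches the peptidyl transferase centre. RPL32, RPL5 and RPL3 lay within their spread of each other. All of these are single copies, and the 19 single copies had a median of 29454 per kb against 17391 for the 118 members of pairs. With the members of each pair added, the median was 32672.

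At the other end stood RPL35B (2696 ± 575), RPL7B (2658 ± 210), RPL15B (506 ± 56.5), RPL41B (381 ± 408) and RPL41A (261 ± 274). Both RPL41 genes encode the shortest of these proteins, and their values scattered so much between libraries (standard error of a log2 difference 0.996 for RPL41A and 1.14 for RPL41B) that no comparison of them was informative. Levels of close copies are uncertain, because a read that fits both cannot be placed. In the 8 pairs that share at least 50% of their coding windows of 50 bases, the summed level had a median of 16626 per kb, and in the other 51 pairs 34265. RPL10, RPL39, RPL28, RPL33A, RPL22A, RPL12A, RPL12B, RPL36B, RPL43A, RPL7B and RPL8B held mostly fractional read numbers, as when reads are shared with another gene model, so that their values are uncertain.

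Alanine lowered most of the family. Against Ctrl, 102 of 137 genes fell and 1 rose, where 24.2% of all 6103 genes tested fell and 23.1% rose (limma, Benjamini-Hochberg adjusted p under 0.05). The median log2 difference was -0.46, a level of 0.73 times Ctrl, against -0.01 over all genes tested, and 136 of the 137 lay below 0. For 85 genes all 4 Ala libraries lay below all 4 Ctrl libraries, where this held for 20.2% of all genes. Set against the other 8 amino acids, averaged, 124 genes were lower and 0 higher by limma (0 also at an unadjusted p under 0.05), where 26.1% of all genes tested were lower and 24.7% higher.

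The fall in Ala ran through every structural class of the family. Of the large-subunit genes 57 of 76 fell, with a median of -0.45 on the log2 scale, of the small-subunit genes 41 of 56 (median -0.48) and of the stalk genes 4 of 5 (median -0.45). Single copies (13 of 19, median -0.47), the higher member of a pair (44 of 59, median -0.44) and the lower member (45 of 59, median -0.49) had similar medians. Higher and lower were set here by the mean level over all 40 libraries, which include those of Ala. Of the 89 genes with an intron in the coding region 70 fell, and of the 48 without one 32 fell. These counts are not tests of a difference between the classes.

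The largest falls in Ala were those of RPS22B, RPS14B, RPL38 and RPS11A. RPS22B, a small-subunit protein gene, had 937, 771, 923 and 806 normalized reads in the Ala libraries of batches A to D and 1833, 1714, 2000 and 1450 in Ctrl. All 4 Ala libraries lay far below all 4 of Ctrl. The difference was -1.02 ± 0.13 (SE) on the log2 scale (adjusted p = 7.25e-08). RPL38, a single-copy protein of the large subunit, had 1352, 1612, 2191 and 2065 in Ala and 3411, 2735, 3824 and 2414 in Ctrl, a difference of -0.78 ± 0.20 (adjusted p = 0.0015). RPS11A, an early-binding protein of the small subunit, had 9188, 8134, 7640 and 12075 in Ala and 15282, 14048, 17659 and 15047 in Ctrl, a difference of -0.76 ± 0.11 (adjusted p = 6.67e-07). Neither gene overlapped between the groups. Against the mean of the other 8, RPL38 was lower by a log2 difference of -0.72 ± 0.15 (adjusted p = 1.37e-04) and RPS11A by -0.71 ± 0.08 (adjusted p = 6.79e-09).

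The gene that rose in Ala was RPL15B, the scarce copy of a large-subunit core protein. It had 370, 407, 480 and 368 normalized reads in Ala and 328, 301, 348 and 268 in Ctrl, with no overlap. The difference was 0.38 ± 0.15 on the log2 scale (adjusted p = 0.033). It did not pass without Ctrl replicate B (0.37), Ctrl replicate D (0.31), Ala replicate B (0.38) or Ala replicate C (0.30).

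Within batches, the median log2 difference of the 137 genes between Ala and Ctrl was -0.54 in A, -0.28 in B, -0.74 in C and -0.25 in D, so the direction was the same in all 4 batches and the size was not. With every library brought to the same total, the median over all genes in Ala was 0.18 and that of the ribosomal proteins -0.27. Relative to all genes the shift stays at -0.45 under any such rescaling, because 1 factor moves all genes of a library alike. The counts became 1 higher and 59 lower. The share of all genes called at equal totals is not set beside them. In these bulk libraries, fewer cells of a kind and less RNA per cell cannot be told apart, nor can a fall in ribosomal protein transcripts in all cells from one in some of them.

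**Figure D2:**
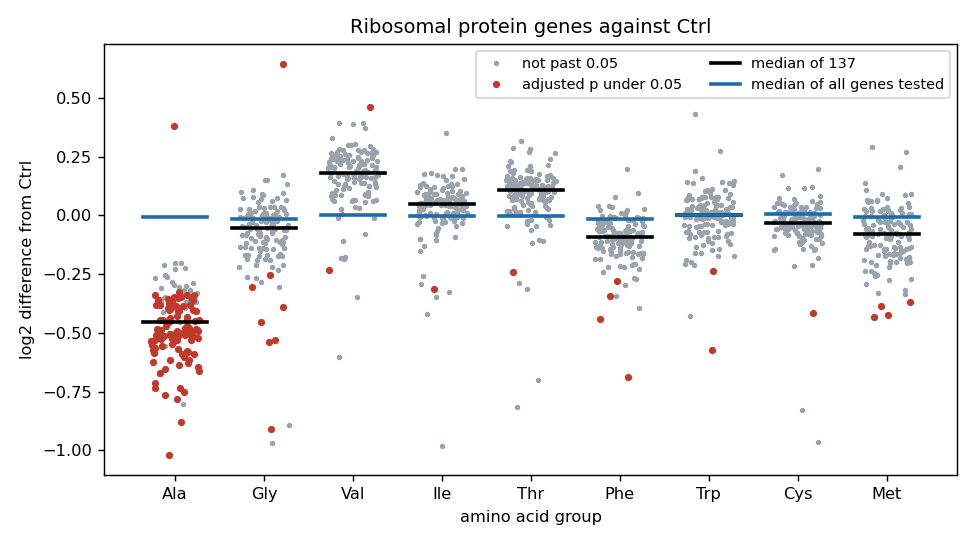
Log2 difference from Ctrl (y axis) of each of the 137 ribosomal protein genes in the 9 amino acid groups (x axis), with genes past an adjusted p of 0.05 in red. Black bars are medians of the 137 and blue bars medians of all genes tested. The median of the members is -0.46 in Ala, 0.18 in Val and between -0.09 (Phe) and 0.11 (Thr) in the other groups. Some grey points lie farther from 0 than red ones. In Ile a member that was not called reached -0.98, and the called RPL9B was at -0.31.

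In no other group did more than 8 members pass against Ctrl. In Val 127 of 137 genes lay above Ctrl, with a median log2 difference of 0.18 against 0.00 over all genes, and the within-batch medians were 0.16 in A, 0.22 in B, 0.10 in C and 0.26 in D. For 10 genes all 4 Val libraries lay above all 4 of Ctrl, where 6.98% of all genes did so. Only RPL8A (rose) and RPL9B (fell) passed the test against Ctrl, where 2.51% of all genes rose and 2.88% fell. The replicate block, which takes out the batch, gave 2 higher and 2 lower. Against the other 8 amino acids, an average that includes Ala, 23 genes were higher in Val and 0 lower by limma (0 also at an unadjusted p under 0.05), where 2.38% of all genes were higher and 4.11% lower. That count was 64 with the replicate block. It was 10 at equal totals, and 3, 3, 1 and 15 without Val replicate A, B, C or D, and 37 without Met replicate C. Here and in the other groups, counts from alternative fits are given without the share of all genes called in that fit. Such counts need not be particular to the family.

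In Thr 120 of 137 genes lay above Ctrl, with a median of 0.11 and within-batch medians of 0.11, 0.13, 0.03 and 0.13 in batches A to D. RPL9B alone passed, downward, where 5.33% of all genes fell. Against the mean of the other 8, 3 genes were higher, where 5.93% of all genes were, and 10 were with the replicate block, but leaving out single libraries moved the 3 to between 1 and 8. In Ile the median was 0.05, and RPL9B was the only gene called (0.655% of all genes fell), joined by 1 rise without Ctrl replicate C. In Trp the median was 0.00, and RPS22B and RPL9B fell, where 6.0% of all genes did. Without Ctrl replicate C the count in Trp was 4, and without Trp replicate D it was 1. In Cys the median was -0.03, and RPS14B alone fell, where 1.54% of all genes did.

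In Met the median was -0.08, with 104 of 137 genes below Ctrl, and the batches differed in sign: -0.20 in A, -0.29 in B, 0.06 in C and 0.07 in D. RPL22B, RPS14B, RPS16A and RPL26A fell, where 3.74% of all genes did. Without Met replicate C 10 genes fell, and without Met replicate B or Ctrl replicate C 1. In Phe the median was -0.09, with 125 genes below Ctrl, but within batches it was 0.09 in A, 0.18 in B, -0.51 in C and -0.11 in D. In batch C all 137 genes were lower in the Phe library than in the Ctrl library. Without Phe replicate C the median of the family in Phe was 0.00 and the genes that fell numbered 2 in place of 4, where 1.9% of all genes fell. The number was also 2 without Phe replicate D or Ctrl replicate C. In Gly the median was -0.05, and 8 genes changed, 7 of them downward, where 26.2% of all genes changed and 12.2% fell.

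Against the other 8 amino acids few members stood apart in the remaining groups. In Gly 2 were higher and 4 lower, where 13.4% of all genes were higher and 11.6% lower. In Cys 4 were higher (17.2% of all genes), in Trp 2 (4.69%) and in Phe 1 (3.98%), and in Met 2 were higher and 2 lower (7.6% and 6.96%). In Ile 0 passed by limma, where 5.36% of all genes changed, and at an unadjusted p under 0.05 there were 15 higher and 0 lower.

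The genes called outside Ala had 1 feature in common. Over the 8 other comparisons with Ctrl there were 23 calls in 12 genes. All 12 were the lower-expressed member of their pair in Ctrl, as are 59 of the 137. The same was not counted for other paralogue pairs of the genome. No single copy and no higher member was called in any of them. Of the 23 calls 21 were falls. Over all genes tested, 742 of 1597 calls in Gly were falls, and in Val 176 genes fell and 153 rose. In Trp 366 fell and 386 rose, and in Met 228 fell and 370 rose. Of the 137 members 7 fell in Gly and 1 to 4 in each other group, where 0.655% (Ile) to 12.2% (Gly) of all genes tested fell. The median standard error was 0.126 for lower members, 0.132 for higher members and 0.139 for single copies, and the part of this in the calls was not tested. Of the 12 genes 9 hold an intron, as do 89 of the 137. In RPL26A the member called was the lower by a small margin, since RPL26B was 1.16 times as high per coding length. All comparisons share the 4 Ctrl libraries, so the calls in them are not independent of each other.

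The copies of a pair were often unequal. In Ctrl the A member was higher in 34 pairs and the B member in 25, and the higher member exceeded the lower by a median of 1.61 times per coding length. The ratio was above 2 in 18 pairs, 13 with A higher and 5 with B higher. RPL15 was the most unequal, with A 48.9 times B. RPL18 (A 6.43 times B), RPL7 (5.87), RPS14 (5.48) and RPS22 (4.52) followed. On the other side RPS9B was 5.86 times RPS9A, RPL36B 2.62 times RPL36A, RPL8B 2.25 times RPL8A, RPS27B 2.12 times RPS27A and RPS19B 2.05 times RPS19A. The ratios of RPL7, RPL36 and RPL8 are uncertain for the shared reads named above. In 21 pairs both genes encode the same protein, and the most different pair was RPP1, with 61.3% of residues alike.

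**Figure D3:**
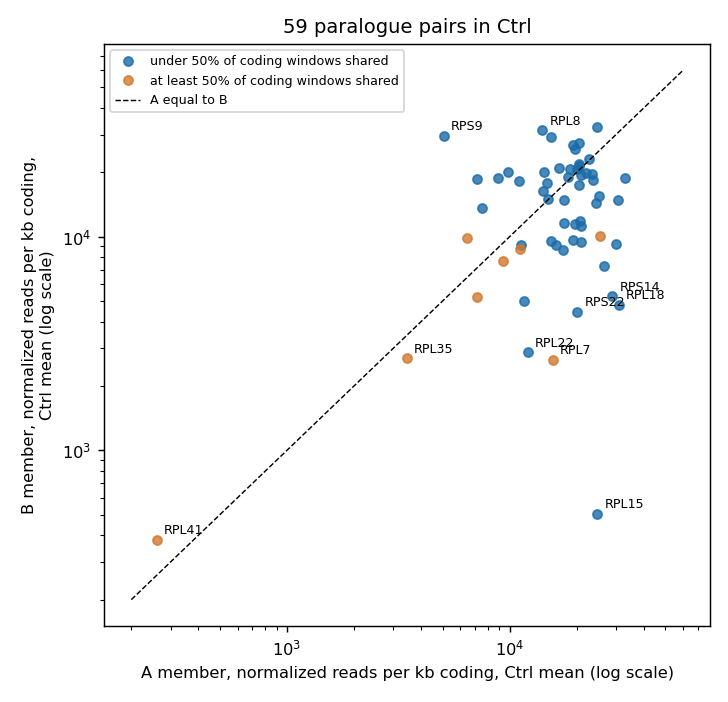
Level of the A member (x axis) and of the B member (y axis) of the 59 pairs in Ctrl, as normalized reads per kb of coding sequence, means of 4 libraries, both axes on a log scale. The dashed line marks equal levels. RPL15 lies farthest below it (A 48.9 times B) and RPS9 farthest above it (B 5.86 times A). Orange points share at least 50% of their coding windows, so their split between A and B is uncertain.

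The stretches below show bases at which reads of RPS14, RPS22 and RPL8, among the pairs that changed most often, can be told apart. A short stretch does not show that all reads of a gene were placed, and RPL8B values were fractional. Each line is 60 bases of coding sequence of the R64 reference, 5′ to 3′, with capitals at the bases that differ between A and B. The build of the deposited table is not given, so the coordinates are those of R64 alone. RPS14 differs at 12 of the 60 bases, RPS22 at 11 and RPL8 at 7.
RPS14A, chrIII:177833-177892, minus strand, exonic: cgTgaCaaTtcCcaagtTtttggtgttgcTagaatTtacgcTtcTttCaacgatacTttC
RPS14B, chrX:74219-74278, plus strand, exonic: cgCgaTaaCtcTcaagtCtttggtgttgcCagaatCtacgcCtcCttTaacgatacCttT
RPS22A, chrX:75201-75260, minus strand, exonic: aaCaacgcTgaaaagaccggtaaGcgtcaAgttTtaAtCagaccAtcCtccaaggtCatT
RPS22B, chrXII:856484-856543, plus strand, exonic: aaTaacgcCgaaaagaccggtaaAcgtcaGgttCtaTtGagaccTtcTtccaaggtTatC
RPL8A, chrVIII:35597-35656, minus strand, exonic: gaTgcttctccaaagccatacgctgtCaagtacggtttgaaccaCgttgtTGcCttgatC
RPL8B, chrXII:48201-48260, minus strand, exonic: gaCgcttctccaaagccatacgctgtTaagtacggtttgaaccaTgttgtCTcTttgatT

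RPS14B had the largest called fall outside Ala. RPS14 is a small-subunit protein needed to mature the small ribosomal RNA, and its protein is known to hold down the RPS14B transcript. RPS14B had 2026, 2169, 2437 and 2172 normalized reads in the Ctrl libraries of batches A to D. In Gly it had 1221, 969, 1371 and 1160, and in Ala 1176, 1373, 1088 and 1161. Both groups lay below the whole Ctrl range. In Phe the values were 1469, 1541, 1181 and 1294, in Cys 1556, 1415, 1820 and 1827, and in Met 1558, 1404, 1921 and 1712, again all below Ctrl. Ile (1630 to 1869) and Thr (1562 to 1949) also stayed under the lowest Ctrl library, while Val (1646 to 2327) and Trp (1754 to 2143) reached into the Ctrl range. In every group each library was below the Ctrl library of its own batch.

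The log2 difference of RPS14B was -0.91 ± 0.12 in Gly (adjusted p = 2.05e-07), -0.88 ± 0.12 in Ala (adjusted p = 1.85e-07), -0.69 ± 0.12 in Phe (adjusted p = 7.35e-05), -0.42 ± 0.12 in Met (adjusted p = 0.015) and -0.42 ± 0.12 in Cys (adjusted p = 0.039). The call in Cys was lost when any 1 of the 4 Ctrl libraries was left out and without Cys replicate A or B (log2 differences -0.46 to -0.34), and in the fit to Ctrl and Cys alone. The call in Met was lost without Ctrl replicate C (-0.37) or Met replicate B (-0.35). Its partner RPS14A had 12336, 11312, 14462 and 9815 in Ctrl and 13493, 11550, 14848 and 11524 in Gly, where the groups overlap but each Gly library was above the Ctrl library of its batch. Gly also set RPS14B apart from the other 8 amino acids, by -0.48 ± 0.09 (adjusted p = 6.26e-05). The share of the pair made by RPS14B, per coding length, was 15.6% ± 1.83 in Ctrl and 8.35% ± 0.58 in Gly.

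RPL9B was called in 7 of the 9 groups, the most of any member, by small but steady falls. RPL9 is a large-subunit protein near the base of the stalk. RPL9B had 5488, 5401, 5307 and 5524 normalized reads in Ctrl, a range of a few percent. In Gly it had 3542, 3786, 3875 and 3855, and in Ala 4254, 3579, 3986 and 4187. Ile (4149 to 4572), Val (4464 to 4947), Thr (4329 to 4699), Phe (4205 to 4843) and Trp (4377 to 4958) also lay wholly below Ctrl. Met (5224 to 5630) and Cys (4779 to 5724) overlapped it.

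The log2 difference of RPL9B was -0.53 ± 0.06 in Gly (adjusted p = 7.44e-08), -0.31 in Ile (adjusted p = 0.0030), -0.28 in Phe (adjusted p = 0.0046), -0.24 in Trp (adjusted p = 0.012), -0.24 in Thr (adjusted p = 0.011) and -0.23 in Val (adjusted p = 0.025). The call in Val was lost without Ctrl replicate A, B or D or Val replicate A, B or D (-0.23 to -0.21), those in Val and Phe in fits to the compared groups alone, and the call in Trp without Trp replicate D (-0.21). In Thr it was lost at equal totals without the family's own reads (-0.20). Its partner RPL9A was at 12342, 11590, 13834 and 10547 in Ctrl and 14407, 14561, 16041 and 13369 in Val, higher in each batch.

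RPS22B was called in Ala, Gly, Phe and Trp. The intron of RPS22B is known to be cut by a double-strand ribonuclease, and the R64 annotation places the small nucleolar RNA gene SNR44 within the RPS22B gene on the same strand, so reads of that RNA could count with it. The 4 Ctrl libraries held 1833, 1714, 2000 and 1450 normalized reads. In Trp the values were 1225, 1268, 1047 and 1139, all below Ctrl, and in Gly 1397, 1344, 1325 and 1046, also all below. In Thr they were 1878, 1765, 2091 and 1641, above the Ctrl library of the same batch each time. The log2 difference was -0.57 ± 0.13 in Trp (adjusted p = 0.0024), -0.45 ± 0.13 in Gly (adjusted p = 0.0085) and -0.44 ± 0.13 in Phe (adjusted p = 0.032). In Phe the 1605, 1485, 1074 and 1045 reads overlapped Ctrl, and the call was lost without Ctrl replicate A, B or C or Phe replicate C or D (-0.45 to -0.34) and at equal totals (-0.41).

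**Figure D4:**
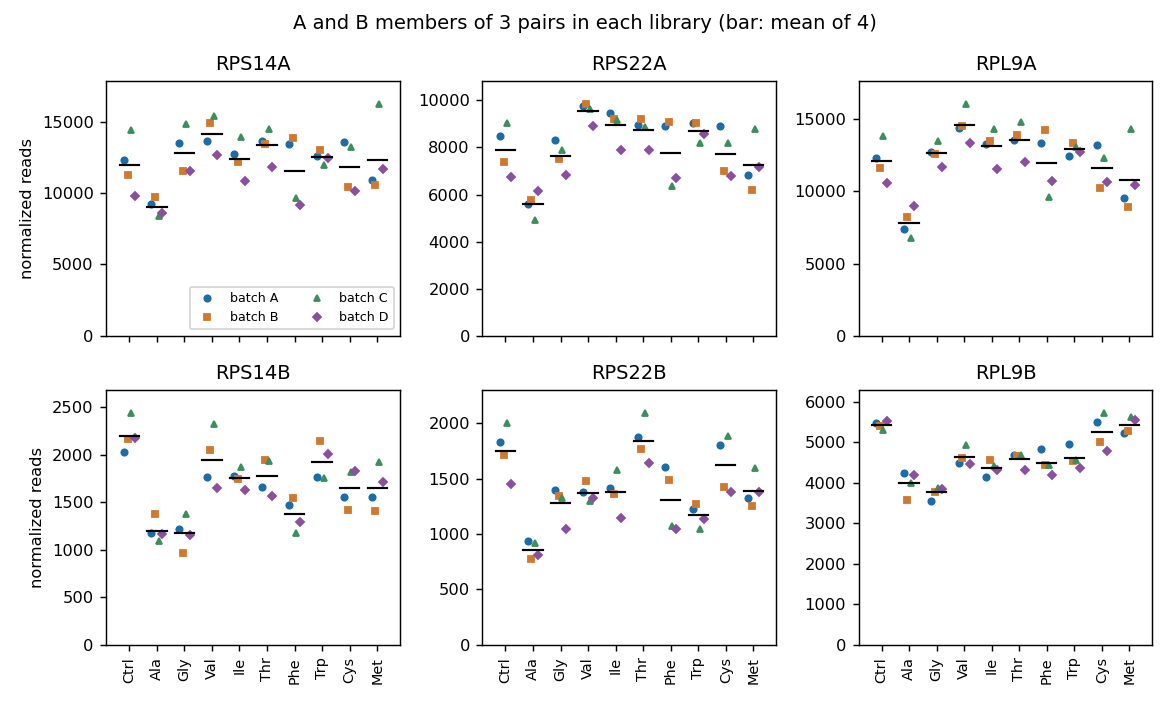
Normalized reads (y axis, from 0) of the A and B members of RPS14, RPS22 and RPL9 in each library, by group (x axis). Symbols mark the batch and bars the mean of 4. The B members of Gly and Ala lie below Ctrl in all 3 pairs, while the A members of Gly overlap Ctrl.

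RPL22B, whose protein is known to block the splicing of its own transcript, had 1150, 1001, 999 and 1099 normalized reads in Ctrl. In Met it had 765, 754, 742 and 894, and in Ala 777, 592, 604 and 741, below Ctrl in both. The log2 difference was -0.43 ± 0.09 in Met (adjusted p = 0.0013) and -0.31 ± 0.09 in Gly (adjusted p = 0.011), where the values were 911, 925, 816 and 789. Met also set RPL22B apart from the other 8, by -0.25 ± 0.07 (adjusted p = 0.0089), a call lost at equal totals (-0.19) and without Met replicate C (-0.22).

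RPS9A, the lower copy of a small-subunit protein that takes part in accurate decoding, fell in Gly. It had 3183, 3318, 2746 and 2807 in Ctrl and 2380, 2006, 1989 and 1932 in Gly, with no overlap. The log2 difference was -0.54 ± 0.11 (adjusted p = 4.80e-04). RPL7B (-0.39 ± 0.10, adjusted p = 0.0046) and RPS24B (-0.25 ± 0.09, adjusted p = 0.041) also fell in Gly. The call of RPS24B was lost without Ctrl replicate C or D or Gly replicate A, C or D (-0.27 to -0.18) and in the fit to Ctrl and Gly alone. RPL7B, a large-subunit protein gene with shared reads that contains SNR59 on the same strand, was set apart from the other 8 amino acids by -0.38 ± 0.08 (adjusted p = 2.32e-04).

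RPL15B rose in Gly as it did in Ala. It had 577, 372, 548 and 470 normalized reads in Gly against 328, 301, 348 and 268 in Ctrl, with no overlap. The difference was 0.65 ± 0.15 on the log2 scale (adjusted p = 0.0013), and 0.42 ± 0.11 against the other 8 (adjusted p = 0.0045), a call lost without Gly replicate A (0.34). Even so it made up 3.07% ± 0.30 of its pair in Gly, and 2.01% ± 0.14 in Ctrl.

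RPL8A, a large-subunit protein of the solvent side, rose in Val. It had 16906, 14312, 14680 and 13647 in Val and 10150, 10182, 12436 and 10516 in Ctrl, with no overlap. The difference was 0.46 ± 0.11 (adjusted p = 0.0064). Against the other 8 it was 0.31 ± 0.08 (adjusted p = 0.016), a call lost without Val replicate A (0.24) or C (0.31). The remaining calls were RPL18B in Phe (-0.34 ± 0.10, adjusted p = 0.032), and RPS16A (-0.39 ± 0.11, adjusted p = 0.021) and RPL26A (-0.37 ± 0.12, adjusted p = 0.040) in Met. RPL18B was not called without Phe replicate C (-0.26) or D (-0.31) or Ctrl replicate C (-0.29) or D (-0.34). RPS16, a small-subunit protein whose tail touches the initiator transfer RNA, lost its call without Ctrl replicate A or C or Met replicate B or C (-0.36 to -0.34). RPL26A, at the rim of the exit tunnel, lost it without Ctrl replicate A, C or D or Met replicate A, B or D (-0.40 to -0.25) and at equal totals (-0.29).

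Averaged over the 9 amino acids, 4 members fell against Ctrl and 0 rose by limma (2 rose at an unadjusted p under 0.05), where 3.88% of all genes fell and 5.15% rose. They were RPS14B (-0.48 ± 0.09, adjusted p = 2.01e-04), RPS22B (-0.39 ± 0.10, adjusted p = 0.0059), RPL9B (-0.26 ± 0.05, adjusted p = 3.10e-04) and RPL22B (-0.21 ± 0.07, adjusted p = 0.040). The call of RPL22B was lost when any 1 of the 4 Ctrl libraries was left out (-0.24 to -0.17) and at equal totals (-0.19), and that of RPS22B without Ctrl replicate C (-0.33).

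A ratio of A to B within a library does not depend on how that library was scaled. It was tested in 435 pairs of paralogues, the 59 of the ribosome and 376 other reciprocal best protein matches. In Ala 14 of 59 ratios changed, where 53.6% of all 435 did. The counts were 11 in Gly (33.3% of all pairs), 8 in Trp (24.1%), 7 in Val (11.7%), 6 in Met (21.6%), 5 in Ile (7.36%), 5 in Thr (14.5%), 5 in Phe (13.6%) and 1 in Cys (7.36%). For the mean of the 9 it was 6 (19.8%). The share called among the ribosomal pairs was therefore near or below that of all pairs in every comparison, which is a description and not a test of a difference.

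Of the 59 ratios, 38 were never called and 21 were called at least 1 time, in 62 calls. In 46 of the 62 the change was against the lower member, and in 40 of 56 without RPS23, whose copies are nearly equal. The same count was not made for the other 376 pairs. The RPS14 ratio changed in all 9 comparisons, each time towards A. The change of log2(A/B) was 1.01 ± 0.10 in Gly (adjusted p = 1.47e-09), 0.62 ± 0.10 in Phe (adjusted p = 3.54e-05) and 0.48 ± 0.10 in Ala (adjusted p = 2.18e-04). It was smallest in Trp, 0.28 ± 0.10 (adjusted p = 0.048), a call lost in the fit to Ctrl and Trp alone, among pairs matched by name only, and without Ctrl replicate B or D or Trp replicate A, C or D (0.19 to 0.30). The calls in Ile (0.39) and Cys (0.40) were lost without 1 of several libraries: in Ile without Ctrl replicate B or D or Ile replicate C (0.30 to 0.37), and in Cys without Ctrl replicate D (0.32) or Cys replicate A (0.31).

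The RPL8 ratio changed in 8 comparisons, towards A, by 0.21 to 0.37 on the log2 scale. The calls in Thr and Met, both 0.21, were lost without Ctrl replicate B or C, among other libraries (0.17 to 0.21). RPL8B made 69.1% ± 0.60 of the pair in Ctrl, 63.5% ± 0.86 in Val and 68.6% ± 0.67 in Cys, the group in which the ratio did not change. Reads of RPL8B were mostly fractional, so this share is uncertain in level. The RPS22 ratio moved towards A in 6 groups, by 0.72 ± 0.08 in Trp (adjusted p = 5.24e-08), 0.62 ± 0.08 in Val (adjusted p = 2.61e-06), 0.53 ± 0.08 in Ala (adjusted p = 2.44e-06) and 0.53 ± 0.08 in Ile (adjusted p = 3.80e-05). RPS22B made 18.1% ± 0.54 of the pair in Ctrl and 11.8% ± 0.40 in Trp.

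RPL9 moved towards A in 5 groups, by 0.60 ± 0.11 in Gly (adjusted p = 6.87e-05) and 0.51 ± 0.11 in Val (adjusted p = 0.0022). The calls of RPL9 in Ile (0.37) and Thr (0.34) were lost without Ctrl replicate D, and that in Trp without Ctrl replicate B or D or Trp replicate B, C or D (0.27 to 0.33). RPL9B made 31.2% ± 2.75 of its pair in Ctrl and 33.9% ± 3.92 in Met. RPS9 moved the other way, towards B, by -0.55 ± 0.10 in Gly (adjusted p = 8.21e-05), -0.50 ± 0.10 in Thr (adjusted p = 7.00e-04) and -0.39 ± 0.10 in Ile (adjusted p = 0.018). The call of RPS9 in Ile was lost without Ctrl replicate A, B or D or Ile replicate A or B (-0.38 to -0.32). Since RPS9A is the lower member, that too is a shift away from the lower copy. RPS23, a protein of the decoding centre whose copies are nearly equal, moved towards B in 6 groups by small steps, -0.24 ± 0.04 in Gly (adjusted p = 1.80e-05) and -0.12 to -0.18 in the other 5. Of these 5, the calls in Val, Phe and Trp were lost without Ctrl replicate B or D, among other libraries. RPL15 moved towards its scarce B copy in Ala (-0.67 ± 0.11, adjusted p = 5.58e-06) and Gly (-0.63 ± 0.11, adjusted p = 3.21e-05).

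**Figure D5:**
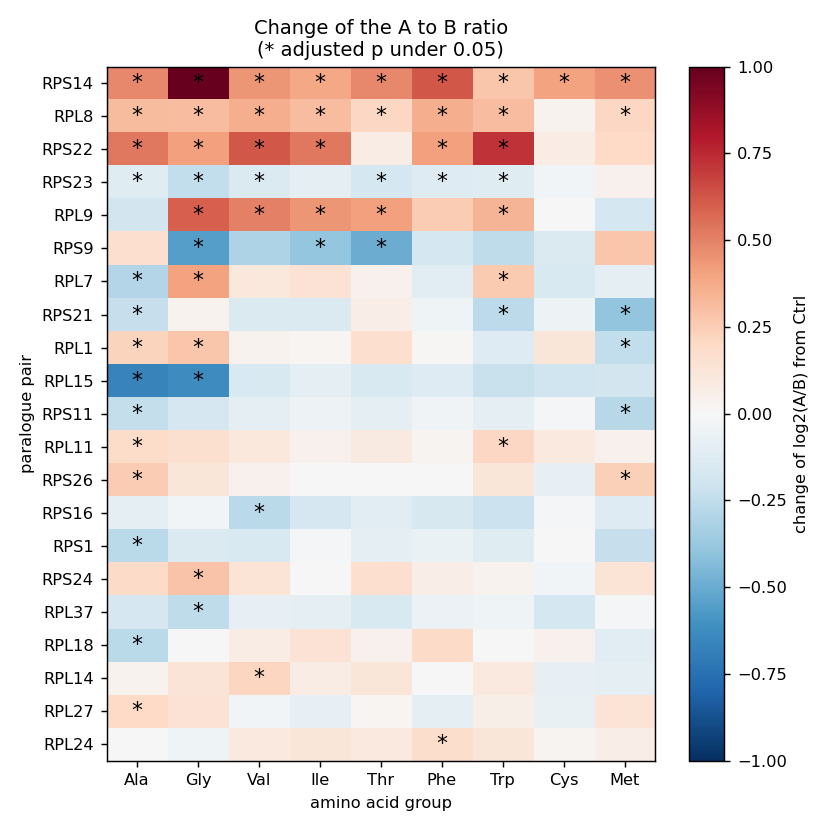
Change from Ctrl of log2(A/B) in the 21 pairs whose ratio was called at least 1 time (y axis), in the 9 amino acid groups (x axis). Red is a shift towards A, blue towards B, the colour scale ends at -1 and 1, and a star marks an adjusted p under 0.05. RPS14 is red and starred in all 9 groups (1.01 in Gly), and Cys holds 1 star.

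When the reads of each pair were added, so that the 78 proteins were tested in place of the 137 genes, few calls outside Ala were left. Each gene called there was the lower member of its pair. The weight of that member in the sum varied, from RPL15 (A 48.9 times B) to RPL26 (B 1.16 times A). Why calls were lost on summing was not tested. The fall of RPS14B in Gly alone would change its pair's sum by -0.11 on the log2 scale. For RPL9B in Gly the value would be -0.14, and for RPS22B in Trp -0.09. These are examples, and their part in the lost calls was not tested. In Ala 62 of 78 fell. In Met RPS16 alone fell (-0.31 ± 0.10, adjusted p = 0.038), and in Gly, Val, Ile, Thr, Phe, Trp and Cys 0 of 78 passed by limma. At an unadjusted p under 0.05 the count was 8 in Val and 0 in each of the other 6 groups with none called. The RPS14 sum differed from Ctrl in Gly by -0.01 ± 0.13 (SE, adjusted p = 0.96), where RPS14B alone fell by 0.91. The RPL9 sum in Gly differed by -0.09 ± 0.10 (adjusted p = 0.52) and the RPS22 sum in Trp by 0.04 ± 0.11 (adjusted p = 0.85). A p above the threshold does not show that a sum was the same, and these standard errors allow changes of the order of 0.2 on the log2 scale.

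Upstream of the genes, the letters ACCCNNACA, which are part of the Rap1 recognition sequence, were searched on both strands of the 600 bases before the start codon in R64. They were found for 57 of 137 ribosomal protein genes (41.6%) and for 371 of 5827 genes in all (6.37%). In Ala 46 of the 57 fell, with a median log2 difference of -0.50, and 56 of the 80 without a match fell, with a median of -0.43. GACGCA was found for 16.8% of the members and 12.7% of all genes, and AAAATTTT for 12.4% and 13.9%. Neither RPS14B, RPS22B nor RPS11A held ACCCNNACA in this window. The lines below give the match in 3 members, with the matching letters in capitals and 15 bases on each side. RPL8A rose in Val, and RPL38 and RPL26A are among the members with the largest falls in Ala, the last one chosen after its values were seen. A match is not shown to be a bound site.
RPL8A, chrVIII:36241-36279, minus strand, 239 to 231 bases before the start codon: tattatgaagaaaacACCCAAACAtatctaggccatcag
RPL38, chrXII:781625-781663, minus strand, 269 to 261 bases before the start codon: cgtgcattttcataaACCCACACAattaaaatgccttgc
RPL26A, chrXII:819027-819065, plus strand, 270 to 262 bases before the start codon, with the match on the opposite strand: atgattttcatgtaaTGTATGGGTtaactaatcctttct

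Genes that regulate the family were followed as a list of 21. In Ala 3 rose and 11 fell, with a list median of -0.26, where 23.1% of all genes rose and 24.2% fell. In Gly 2 rose and 6 fell, where 26.2% of all genes changed. In Val 4 fell (2.88% of all genes), in Thr 2 fell (5.33%), in Trp 2 fell (6.0%), and in Met 1 rose (6.06%) and 2 fell (3.74%). In Ile, Phe and Cys none of the 21 passed by limma, and at an unadjusted p under 0.05 the counts were 3, 1 and 1. SFP1, an activator of ribosomal protein genes that responds to TORC1, had 1419 ± 46.4 normalized reads in Ctrl and 996 ± 147 in Ala, a log2 difference of -0.52 ± 0.09 (adjusted p = 2.46e-05). It was also lower in Val (-0.39 ± 0.09, adjusted p = 0.0074) and Thr (-0.34 ± 0.09, adjusted p = 0.013), where most ribosomal protein genes lay above Ctrl. IFH1, the coactivator that works with Fhl1, was lower in Thr (-0.49 ± 0.11, adjusted p = 0.0023), Trp (-0.47 ± 0.11, adjusted p = 0.0036), Val (-0.40 ± 0.11, adjusted p = 0.024) and Ala (-0.37 ± 0.11, adjusted p = 0.0070). CRF1, a corepressor that competes with Ifh1, rose in Ala, from 88.9 ± 10.4 in Ctrl to 232 ± 25.6 (log2 difference 1.38 ± 0.19, adjusted p = 3.58e-07), and in Gly (0.76 ± 0.19, adjusted p = 0.0028). HMO1, a high-mobility-group protein found at many of these promoters, fell in Ala (-0.62 ± 0.08, adjusted p = 1.45e-07) and Gly (-0.37 ± 0.08, adjusted p = 7.70e-04).

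Of 11 chaperones and assembly factors tied to particular ribosomal proteins, 4 fell in Ala and 2 in Gly, where 24.2% and 12.2% of all genes fell, and none passed in the other 7 groups by limma (at an unadjusted p under 0.05, 1 in Val, 2 in Trp, 1 in Cys and 0 in the rest). Those that fell in Ala were SYO1, which carries Rpl5 and Rpl11 (-0.66 ± 0.17 in Ala, adjusted p = 0.0021), RRB1, for Rpl3 (-0.55 ± 0.13 in Ala, adjusted p = 7.21e-04), SQT1, for Rpl10 (-0.39 ± 0.12 in Ala, adjusted p = 0.0096), and PUF6 (-0.80 ± 0.19 in Ala, adjusted p = 8.34e-04). In Gly SYO1 (-0.50 ± 0.17, adjusted p = 0.030) and PUF6 (-0.57 ± 0.19, adjusted p = 0.024) fell.

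Of 18 proteins that work on the ribosome, mostly elongation factors and chaperones of the nascent chain, 14 fell and 1 rose in Ala, with a list median of -0.47, where 24.2% of all genes fell and 23.1% rose. In Gly 2 fell (12.2% of all genes), in Thr 1 fell (5.33%), in Met 1 fell (3.74%), in Trp 1 rose (6.32%), and in Val, Ile, Phe and Cys none passed by limma (2, 0, 3 and 1 at an unadjusted p under 0.05). EFT2, an elongation factor that moves the ribosome along, fell by 0.70 on the log2 scale (adjusted p = 3.33e-04). HYP2 and ANB1 encode the same translation factor, eIF5A, the first made with oxygen and the second without it. HYP2 fell in Ala, from 4790 ± 2296 normalized reads in Ctrl to 1735 ± 1149 (adjusted p = 2.76e-04), and ANB1 was the member that rose, from 76.4 ± 33.6 normalized reads in Ctrl to 4007 ± 1312, a log2 difference of 5.72 ± 0.31 (adjusted p = 3.69e-17).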

How the data were processed

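RNA of 40 yeast libraries was isolated with a MasterPure kit, and poly(A) RNA from 300 ng was made into directional NEBNext Ultra II libraries, per the labels' protocols. The submitters' processing notes name STAR 2.7.8a and Partek without saying what each did. The genome build and any use of the strand are not given in these sources. The authors deposited normalized reads for each gene in each library, a signal. From the values, each library's reads were divided by 1 factor, since among values of 20000 reads or fewer 88.8 to 90.9% fell within 0.1 read of a multiple of 1 step. The rest were fractional, so no count test was run. In all, 4 lines without values were not used.

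For the 6103 genes averaging 5 or more, log2(value + 1) was fitted in R 4.3.3 by limma 3.58.1, with all 40 libraries, a mean for each group, a trended prior and no block. P-values were adjusted over all 6103 by Benjamini-Hochberg, with calls under 0.05. Log2 differences on this scale are too small for genes with few reads. Pair ratios, log2(A + 1) minus log2(B + 1), were tested likewise over 435 pairs. These were the 59 ribosomal pairs by name and the other reciprocal best protein matches (BLAST 2.17.0 on R64 proteins, at least 40% identity over at least 80% of the longer protein). All comparisons with Ctrl share its 4 libraries. Lengths, introns and sequences are from the RefSeq R64 genome and annotation.

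The labels give the letters as batches, which pairs the libraries, but the main fit does not use this pairing. With the letter as a block, 1 member rose and 120 fell in Ala against Ctrl, where 1 rose and 102 fell in the main fit. Deviations from the group means correlated on average at 0.174 within a letter and at -0.0576 across letters. Such deviations cancel within each group, so the value across letters follows largely from that within letters.

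Data were simulated for Ala against Ctrl with independent normal noise. Over 6103 genes, log2 changes of 0.25, 0.5 and 1 were set in 67, 67 and 66 genes. Of these, 11.9%, 49.3% and 81.8% were found. Over 435 pairs, with 20 changed at each size, it was 15%, 70% and 95%. Far more genes were called in the Ala data (1407 higher and 1474 lower), so these shares may not carry over.

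The members, lists, comparisons and alternatives were chosen with earlier results of these data known. Named genes are the 4 largest rises and falls past the threshold in each comparison with Ctrl with the same sign in all 4 letters, up to 5 each way for the mean of the 9, up to 2 each way set apart from the other 8 amino acids, the 5 highest and 5 lowest levels and the members called most; 1 of the highest is not reported here. Named pairs are the 5 most unequal each way, up to 3 each way per comparison and those called most. RPS24B, RPL7B and RPL22B in Gly fall outside the rule for Ctrl comparisons and were named after their values were seen. Alternatives were pseudocounts of 0.25 and 4, no filter, median-of-ratios scaling, equal totals with and without the ribosomal genes, the letter as a replicate block, only the compared groups, each library left out, paralogues summed, pairs by name only, and only the 52 ribosomal pairs whose members had mostly whole reads.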

Additional observations from a re-analysis of the deposited data

Results flagged for a closer look

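Per-library values of 12 members and the family's share of reads were screened in the 10 groups for a library far from the other 3. Of 130 groups 4 were marked, and chance alone marks about 1 in 20. RPL9B in Thr had 1 low library, 4329 normalized reads in batch D, with the others between 4673 and 4699. RPL22B in Met had 1 high library, 893.5 in batch D, with the others between 742 and 765, so its fall in Met was smallest there. RPL8A in Ctrl had 1 high library, 12436 in batch C, with the others between 10150 and 10516. RPS9A in Gly had 1 high library, 2380 in batch A, with the others between 1932 and 2006, and all 4 remained below Ctrl.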

How the results depend on the processing

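In Ala, under each alternative run, at least 59 members were called lower and at most 1 higher, against Ctrl and against the other 8. The number of members called in Ala against Ctrl was 85 to 112 when single libraries were left out, 60 at equal totals, 65 at equal totals without the ribosomal genes and 62 of 78 with paralogues summed. Against the other 8 amino acids it was 111 to 129 without single libraries and 72 of 78 with paralogues summed. The smaller counts were less stable, and the cause was not tested. The share of all genes called in each alternative is not set beside these counts. A changed count therefore need not be particular to the family.

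With paralogues summed, the count fell to 0 in Gly, Val, Ile, Thr, Phe, Trp and Cys against Ctrl and for the mean of the 9, and to 1 in Met. Against the other 8 it was 10 in Val, and 0 in Gly, Thr, Phe, Trp, Cys and Met. With the replicate block it was 4 in Val against Ctrl, and against the other 8 amino acids 64 in Val, 10 in Thr, 4 in Trp and 8 in Met. The block changed no other count of members or pairs by more than 1.5 times. At equal totals it was 2 in Ile, 2 in Thr and 4 in Trp against Ctrl, and against the other 8, 10 in Val and 7 in Thr. At equal totals without the ribosomal genes it was 2 in Ile, 4 in Trp and 2 in Met against Ctrl, and against the other 8, 7 in Val, 8 in Thr, 2 in Cys and 2 in Met. In fits to the compared groups only it was 4 in Val, 2 in Ile, 2 in Thr, 1 in Phe and 0 in Cys, and for pair ratios 7 in Ala, 3 in Phe and 0 in Cys.

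Leaving out 1 library at a time gave, against Ctrl, 7 to 9 members in Gly, 1 to 3 in Val, 1 to 2 in Ile, 1 in Thr, 2 to 4 in Phe, 1 to 4 in Trp, 0 to 1 in Cys, 1 to 10 in Met and 2 to 5 for the mean of the 9. Against the other 8 it gave 4 to 7 in Gly, 1 to 37 in Val, 0 to 1 in Ile, 1 to 8 in Thr, 0 to 2 in Phe, 0 to 3 in Trp, 2 to 5 in Cys and 2 to 9 in Met. For pair ratios it gave 10 to 18 in Ala, 9 to 13 in Gly, 4 to 7 in Val, 2 to 5 in Ile, 3 to 5 in Thr, 4 to 6 in Phe, 3 to 8 in Trp, 0 to 1 in Cys, 3 to 6 in Met and 4 to 7 for the mean of the 9.

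No named gene or pair reversed under any alternative, and 48 of 83 named results kept their call in all of them. Against Ctrl, fits to the compared groups alone ended the calls of the genes RPL9B in Val and Phe, RPS22B and RPL18B in Phe, RPS14B in Cys and RPL26A in Met. Equal totals, with or without the ribosomal genes, ended those of RPS22B in Phe, RPL26A in Met and RPL22B for the mean of the 9, and without them also RPL9B in Thr and RPS16A in Met. The faint RPL41A and RPL41B scattered widely between libraries (standard error of a log2 difference 0.996 and 1.14). RPL15B was faint too, and the part of depth in these values was not tested. Levels of near-identical copies are uncertain, since a read that fits both cannot be placed. Their read numbers were whole in RPL1A, RPL1B, RPL35A and RPL35B but mostly fractional in RPL7B. How reads that fit both copies were counted was not tested.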
